A study of Physcomitrium patens with 24 samples.

Results

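The 30-min list of protein-protected RNA sites from protonema of the moss Physcomitrium patens holds 47781 sites, of 147131 in the lists of all 3 times (52248 at 0 min and 47102 at 60 min). All of its sites were taken, and each was assigned to the nuclease whose calls it contains, the double-strand-specific dsRNase (RNase V1) or the single-strand-specific ssRNase (RNaseONE). Protonema, the filamentous juvenile tissue, was grown in liquid culture and given abscisic acid (ABA), at 10 µM by the design text and 10 mM by the treatment protocol, for 30 or 60 min, and control samples received methanol. No group without ABA is labelled at 30 or 60 min. Each of 2 numbered replicates per time was crosslinked with formaldehyde, and its homogenate was divided into a protein-bound and a structure-only portion and then between the RNases, which gave 24 libraries in 12 groups of 2. The RNase digestions differed in enzyme, buffer and temperature, so an RNase here means that whole treatment. The site names show 4 call sets at 30 min, dsRNase replicates 1 and 2 and ssRNase replicates 1 and 2. Which libraries each set was called from is not stated in the lists. The labels do not say that replicates were separate cultures, so each p-value reflects differences among the samples at hand, and these could be technical. The lists carry no read counts, so the depth of each library is unknown.

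Protein interaction profile sequencing (PIP-seq) finds RNA that a bound protein shields from a nuclease, by comparing digestion with and without the protein in place. RNase V1 cuts paired RNA and RNaseONE cuts unpaired RNA. A protein on an unpaired stretch is therefore seen through the loss of RNaseONE cutting, and a protein on a paired stretch through the loss of RNase V1 cutting, and the assay uses both enzymes to cover both kinds of RNA. In plants ABA is the hormone of drought and osmotic stress, and mosses respond to it in their protonema.

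Protection from dsRNase was called far more often than protection from ssRNase. At 30 min the dsRNase sets held 41292 and 29773 calls, against 10536 and 17745 calls in the ssRNase sets. Both dsRNase sets lay above both ssRNase sets, with means of 35532.5 ± 8145 and 14140.5 ± 5098 calls (SD, n = 2 each). With 2 sets against 2, the exact permutation test cannot go below p = 0.333, and it gave that value. The order was the same in 0-min sets, which averaged 40616.5 ± 4294 dsRNase and 8955.5 ± 927 ssRNase calls, and in 60-min sets, which averaged 37549 ± 1790 dsRNase and 7660 ± 339 ssRNase calls. Permuting the RNase labels within each time over all 12 call sets gave an adjusted p of 0.0185 (exact two-sided, Benjamini-Hochberg over 6 measures), with dsRNase higher in 6 of 6 divided samples. The unadjusted p was 0.00926, the smallest this test can give. It does not use the division of samples, and the exact test with same-numbered sets as pairs gave an adjusted p of 0.0469.

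Most sites were seen with dsRNase alone. Of the 47781 sites, 31931 (66.8%, 95% Wilson interval 66.4 to 67.2%) had dsRNase calls alone, 12733 (26.6%, 26.25 to 27.05%) had calls of both RNases and 3117 (6.52%, 6.31 to 6.75%) had ssRNase calls alone. The intervals cover counting error only. The overlap was lopsided because the sets differ in size, so it is given as a share of each. Of the sites with a dsRNase call, 28.5% also had an ssRNase call, and of the sites with an ssRNase call 80.3% also had a dsRNase call. These shares were 17.8% and 79.8% in the 0-min list and 16.1% and 81.0% in the 60-min list. The share of ssRNase sites with a dsRNase call thus lay between 79.8 and 81.0% at all 3 times, while the share of dsRNase sites with an ssRNase call was highest at 30 min, where the ssRNase sets held the most calls. No test was made of these shares. Leaving out ssRNase replicate 2 at 30 min lowered the share of dsRNase sites with an ssRNase call to 15.2%, so its 30-min value rested on that set.

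The 30-min sites fell into 15 patterns of support by call set. Sites called in dsRNase replicate 1 alone were the most numerous, 16044 or 33.6% of the list, against 4580 in dsRNase replicate 2 alone. A further 11307 were called in both dsRNase sets and no ssRNase set. All 4 sets held 4663 sites, and 4412 were held by every set but ssRNase replicate 1. Among sites without a dsRNase call, 954 were called in both ssRNase sets, 1513 in replicate 2 alone and 650 in replicate 1 alone.

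**Figure D1:**
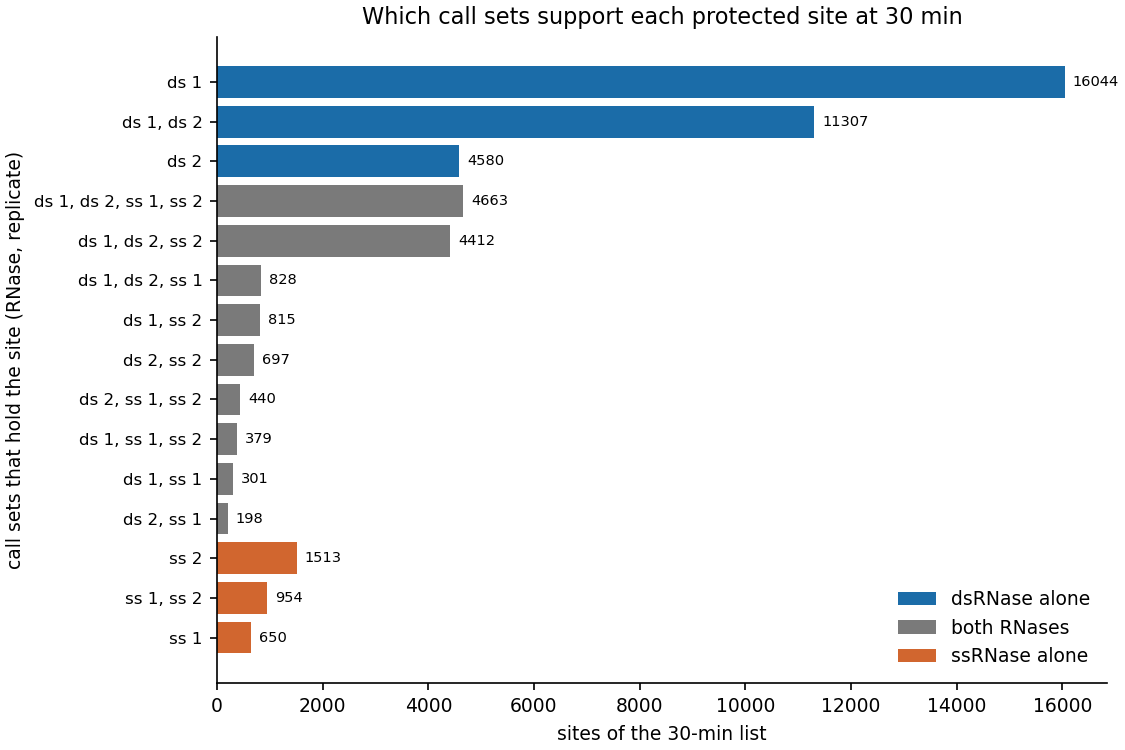
Number of 30-min sites (horizontal axis) for each combination of call sets that holds them, written as RNase and replicate, with combinations of dsRNase alone in blue, both RNases in grey and ssRNase alone in orange. The longest bar, 16044 sites, belongs to dsRNase replicate 1 alone, and the ssRNase-alone bars hold 1513, 954 and 650 sites.

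Replication within an RNase went with overlap between RNases. Of dsRNase sites called in both dsRNase replicates, 46.7% also had an ssRNase call, against 12.1% of those called in 1 replicate. Of ssRNase sites called in both ssRNase replicates, 85.2% also had a dsRNase call, against 77.0% of those called in 1. Agreement of 2 sets, counted as sites called in both over sites called in either, was 47.5% for the dsRNase replicates and 40.6% for the ssRNase replicates. Between the RNases it was 15.1% and 33.2% for sets with the same replicate number, and 24.2% and 20.8% for sets with different numbers. Every replicate pair of an RNase thus agreed more than every pair of different RNases at 30 min, but the number of calls per set differs between the RNases and limits the agreement they can reach.

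Sites held by both RNases were the wide ones. The median width was 38 nt for dsRNase-alone sites, 74 nt for sites of both and 29 nt for ssRNase-alone sites. Of the 1378 sites at least 200 nt wide, 57 were dsRNase-alone, 1321 (95.9%) were of both RNases and 0 were ssRNase-alone. Sites of both RNases covered 1367.51 kb, close to the 1418.47 kb of the far more numerous dsRNase-alone sites, and ssRNase-alone sites covered 92.987 kb. A site grows as calls are merged, so these widths are not independent of the number of sets in a site. With support held at 2 sets, the median was 49 nt for dsRNase-alone sites, 45 nt for sites with 1 set of each RNase and 32 nt for ssRNase-alone sites.

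Sites made of 1 call were wider with dsRNase. A call that merged with any other was left out. This kept 16044 of 38749 and 4580 of 27125 dsRNase sites, against 650 of 8413 and 1513 of 13873 ssRNase sites. The comparison thus covers unmerged calls alone, and whether merging removed wider calls of one RNase was not tested. Sites made of 1 call had median widths of 34 and 33 nt in the dsRNase sets, against 27 and 29 nt in the ssRNase sets, a difference of 5.5 nt at 30 min with no overlap between the groups. The difference was 3.5 nt at 0 min and 5 nt at 60 min, with dsRNase wider in 6 of 6 divided samples (exact permutation within times, adjusted p = 0.0444). At 0 and 60 min the sets overlapped, with 31 and 27 nt in dsRNase and 30 and 21 nt in ssRNase sets at 0 min, and 32 and 27 nt against 27 and 22 nt at 60 min. Replicate 1 was wider than replicate 2 in both RNases at 0 and 60 min. The adjusted p was 0.0667 to 0.0889 when any of the 4 sets of 30 min was left out, a change that also leaves fewer arrangements.

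**Figure D2:**
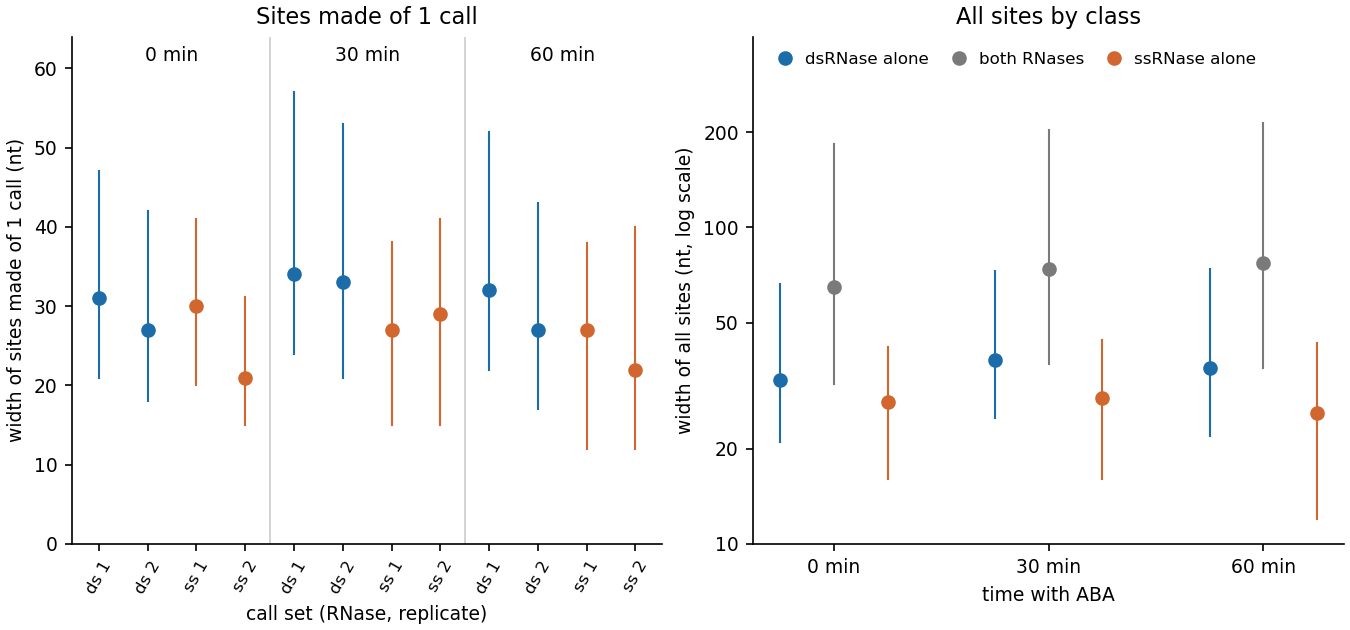
Left, width in nt of sites made of 1 call, by call set (RNase, replicate) at 0, 30 and 60 min; right, width in nt on a log scale of all sites by class at each time, with dsRNase alone, both RNases and ssRNase alone in that order. Points are medians and lines run from the 10th to the 90th percentile of sites; at 30 min the dsRNase medians of 34 and 33 nt lie above the ssRNase medians of 27 and 29 nt, and the class medians are 38, 74 and 29 nt.

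The 5 widest sites were all of both RNases, and their numbers of merged calls varied. The widest site of both RNases lay on chromosome 22 (8261505 to 8263042, plus strand, 1538 nt) and was merged from 4 and 2 dsRNase calls and 9 and 15 ssRNase calls. The next, 1537 nt wide, lay on the same chromosome and strand (8324355 to 8325891) with 2 and 2 dsRNase calls and 8 and 14 ssRNase calls; their near-equal widths leave shared reads possible, which was not tested. The third, on chromosome 24 (1041874 to 1043287, 1414 nt), had 2 and 3 dsRNase and 5 and 8 ssRNase calls. On chromosome 26 (1833 to 3190, 1358 nt) there were 9 and 2 dsRNase and 8 and 7 ssRNase calls, and on chromosome 16 (3154259 to 3155569, 1311 nt) 8 and 4 dsRNase and 3 and 10 ssRNase calls. The RNases did not overlap in the first 3 of these sites and overlapped in the other 2. The widest dsRNase-alone site, on chromosome 19 (4792954 to 4793438, minus strand), was 485 nt and held 1 call of each dsRNase set. Next came 2 sites on chromosome 6, of 466 nt (18331874 to 18332339, minus strand) and 452 nt (18178469 to 18178920, plus strand), each with 2 calls in each dsRNase set and no ssRNase call.

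No ssRNase-alone site exceeded 93 nt. Sites of that width lay on chromosome 23 (12787312 to 12787404, plus strand) and on scaffold_1078, scaffold_1097 and scaffold_1176, and the fifth, of 92 nt, lay on chromosome 20 (83078 to 83169, minus strand). All 5 were called in both ssRNase sets. The scaffold sites and the chromosome 20 site had deposited scores of 2388.95 to 3803.25, against a median score of 25.9 over ssRNase-alone sites of both sets. The chromosome 23 site had a score of 32.7.

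More ssRNase calls than dsRNase calls went into most of the widest sites, those of at least 500 nt. Over all called sites a set held 1.07 and 1.10 calls per site with dsRNase, against 1.25 and 1.28 with ssRNase. The difference had the same sign in 6 of 6 divided samples (exact permutation within times, p = 0.00926, the smallest possible; a measure added after the data were seen). Among sites of both RNases under 50 nt wide, the ratio was 1.00 in both dsRNase sets and 1.01 in both ssRNase sets. In the 210 sites of both RNases at least 500 nt wide it was 3.05 and 2.41 with dsRNase, against 4.74 and 5.84 with ssRNase, and 76.2% of these sites held more ssRNase than dsRNase calls. From 100 to under 200 nt the sets overlapped, with 1.266 and 1.300 for dsRNase against 1.269 and 1.385 for ssRNase. The RNases thus differed little in calls per site where sites were narrow and most where they were widest. Width grows as calls are merged, so width and calls per site are not independent. The ratios over all called sites also cover unlike mixes, as 80.3% of ssRNase sites but 28.5% of dsRNase sites were of both RNases. The part of this in the overall difference was not tested.

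Sites were joined into regions where gaps on a strand were under 500 nt. This gave 15572 regions, of which 9272 held dsRNase calls alone, 5483 held both RNases and 817 held ssRNase calls alone. DsRNase-alone regions were single sites in 66.4% of cases, and ssRNase-alone regions in 91.2%, or 745 regions. Regions of both RNases had a median of 4 sites over 621 nt. The share of regions with an ssRNase call was 21.1% for single sites, 44.9% for 2 to 4 sites, 80.7% for 5 to 9, 96.7% for 10 to 19 and 99.5% for 20 or more. A region with more sites has more chances to hold an ssRNase call. Within regions, the share of sites held by both RNases was 11.5% in single-site regions and 41.1% in regions of 20 or more, while the ssRNase-alone share was 9.55% and 3.92%.

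SsRNase sites lay in large regions slightly more often. The share of a set's called sites in regions of at least 10 sites was 31.7 and 40.1% for dsRNase, against 40.1 and 42.3% for ssRNase. Replicate 2 of dsRNase and replicate 1 of ssRNase were nearly equal. The mean difference was -5.29 percentage points at 30 min (exact permutation of 2 against 2, p = 0.333). Over the 3 times it was -6.04 points, with dsRNase lower in 6 of 6 divided samples (exact permutation within times, adjusted p = 0.0185). In the alternatives that follow, the points are those of 30 min and the adjusted p that of the 3 times. With gaps under 1000 nt the difference was -2.98 points and the adjusted p 0.178, and without ssRNase replicate 2 it was -4.19 points with an adjusted p of 0.0556. The size rested on the dsRNase sets, with -1.11 points without dsRNase replicate 1 (adjusted p = 0.037) and -9.47 points without dsRNase replicate 2 (adjusted p = 0.0139), by the same exact test. SsRNase-alone sites themselves did not follow this order, with 25.6% in such regions against 26.7% of dsRNase-alone sites and 45.1% of sites of both RNases.

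Most ssRNase-alone sites had a dsRNase site close by. From an ssRNase-alone site the nearest dsRNase site on the strand was a median of 136.5 nt away, and 70.0% lay within 500 nt. From a dsRNase-alone site the nearest ssRNase site was a median of 716 nt away, and 44.7% lay within 500 nt. DsRNase sites are more numerous, which shortens the first distance.

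Position within regions hardly differed. In regions of at least 1000 nt and 5 sites, the mean relative position of a set's sites, from 0 at the 5′ end to 1 at the 3′ end, was 0.499 and 0.501 for dsRNase and 0.507 and 0.503 for ssRNase. The difference of -0.0048 at 30 min was smaller than at 0 min (-0.0214) and at 60 min (-0.0125). DsRNase was lower in 6 of 6 divided samples (exact permutation within times, adjusted p = 0.0185 for the 3 times together). However, the difference at 30 min was -0.0021 with gaps under 200 nt (adjusted p for the 3 times 0.3). Without a repeated block on chromosome 20 described with the chromosomes it was -0.0019 (adjusted p for the 3 times 0.0278). The share of sites on the plus strand was 59.9 and 55.1% for dsRNase and 58.0 and 51.8% for ssRNase. These sets overlapped, and dsRNase was higher in 3 of 6 divided samples (exact permutation, adjusted p = 0.694).

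Sites of the 30-min list were then looked up at 0 and 60 min, where sharing 1 nt or more on a strand counted as the same site. A site of the list at 0 or 60 min overlapped 86.4 and 93.9% of the dsRNase sites, against 94.4 and 93.3% of the ssRNase sites, so the groups overlapped at 30 min. Over all times dsRNase was higher in 1 of 6 divided samples (exact permutation within times, adjusted p = 0.0278). With same-numbered sets taken as pairs the adjusted p was 0.075, and without dsRNase replicate 1 at 30 min the difference was 0.02 points in place of -3.72.

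Sites of both RNases at 30 min met ssRNase calls at the other times more often than dsRNase-alone sites did. Of the 30-min sites of both RNases, 47.5% overlapped a site with an ssRNase call at 0 min and 47.6% at 60 min. Of the dsRNase-alone sites this was 7.71% at 0 min and 3.77% at 60 min. SsRNase-alone sites overlapped a site with an ssRNase call in 43.5% of cases at 0 min and 31.7% at 60 min, and 40.9 and 53.6% of them overlapped no site at all. Wider sites are overlapped more readily, and the classes differ in width.

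By chromosome the RNases differed most, in percentage points, on chromosome 20. It held 4.45 and 4.84% of the dsRNase sites, against 8.12 and 6.20% of the ssRNase sites. The values at 0 min were 4.38 and 4.27% against 7.97 and 8.41%, and at 60 min 4.76 and 4.89% against 9.15 and 8.17%, so the RNases did not overlap at any time. Of 28 shares tested (27 chromosomes and the scaffolds together), 11 were higher with dsRNase (39.3% of those tested) and 7 with ssRNase (25%), by exact permutation within times with Benjamini-Hochberg adjustment over the 28. With same-numbered sets as pairs, 0 of 28 passed, and the adjusted p of chromosome 20 was 0.0515. The paired test cannot go below an unadjusted p of 0.0312, so adjustment over 28 shares leaves it little room to pass any. Its 0 is therefore no evidence of equal shares. At an unadjusted p under 0.05 the permutation within times gave 18 shares. Shares of 1 set sum to a fixed total, so a high share on chromosome 20 lowers the others.

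The other differences by chromosome were smaller in percentage points. Chromosome 2 held 5.90 and 5.50% of dsRNase sites, against 4.54 and 5.07% of ssRNase sites. Chromosome 22 held 2.97 and 3.27% against 3.52 and 3.54%. The scaffolds held 0.583 and 0.664% of dsRNase sites, against 1.33 and 1.04% of ssRNase sites. In each of these 3 the adjusted p was 0.0185 (exact permutation within times) and the 30-min groups did not overlap.

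**Figure D3:**
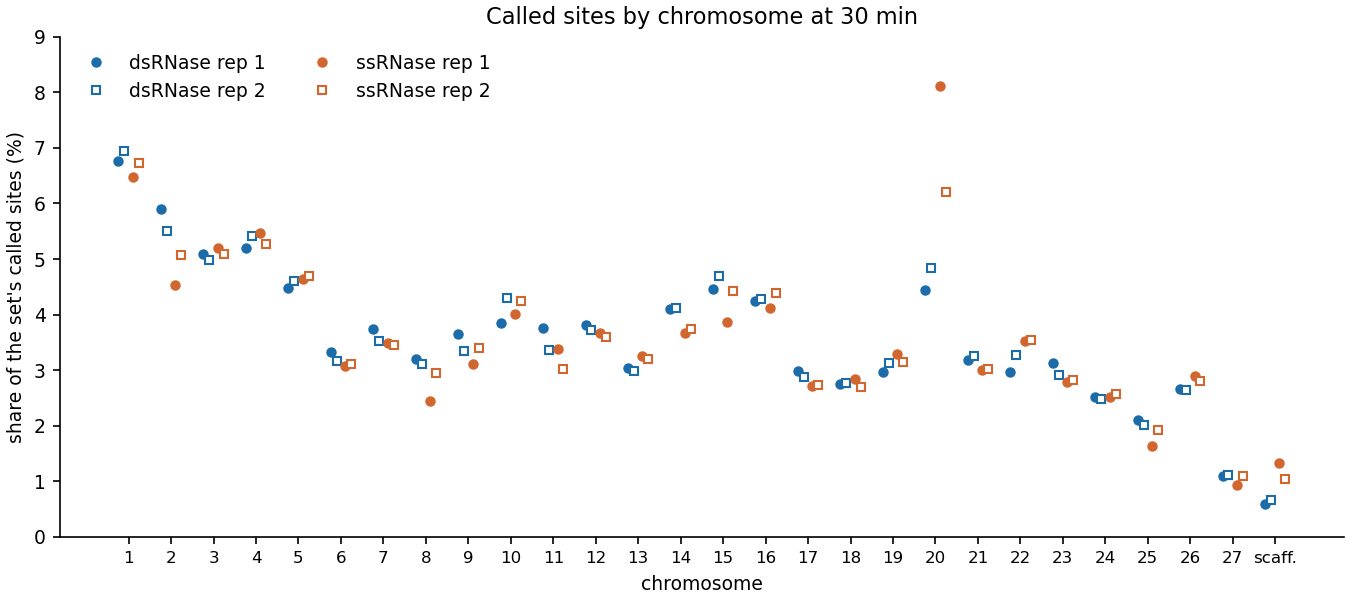
Share of each 30-min call set's called sites, in percent, on each of 27 chromosomes and on the scaffolds together, with dsRNase in blue and ssRNase in orange, replicate 1 as filled circles and replicate 2 as open squares. On chromosome 20 the ssRNase sets stand at 8.12 and 6.20%, above the dsRNase sets at 4.45 and 4.84%.

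The chromosome 20 difference lay in 1 block at the start of the chromosome, which was picked out after the values were seen. On the minus strand from 2413 to 249547 (247.135 kb) 70 regions with 460 sites followed each other in a repeating order. Of these sites 70 were dsRNase-alone, 202 were of both RNases and 188 were ssRNase-alone, which is 6.03% of all ssRNase-alone sites of the list. The block held 0.534 and 0.903% of the dsRNase sites, against 4.08 and 2.38% of the ssRNase sites. At 0 min these shares were 0.646 and 0.600% against 4.49 and 4.64%, and at 60 min 0.810 and 0.905% against 5.36 and 4.65%. Without the block chromosome 20 held 3.93 and 3.97% of dsRNase sites and 4.21 and 3.91% of ssRNase sites, and its test gave an adjusted p of 0.981. The count of chromosome shares past the threshold without the block was 13.

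The block repeats a unit with 3 kinds of region. The 21 long regions (median 2553 nt) began a median of 11584.5 nt apart, the 22 middle ones (median 725 nt) 11553 nt apart and the 27 short ones (median 50 nt) 11404.5 nt apart. The middle regions held totals of 91 and 111 called sites with dsRNase and 109 and 134 with ssRNase, so both RNases called them. The long regions held 111 and 128 with dsRNase, against 209 and 169 with ssRNase, and in 15 of the 21 both ssRNase sets lay above both dsRNase sets in unscaled numbers. This is opposite to the whole list, where dsRNase sites outnumber ssRNase sites.

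The short regions held 5 and 6 called sites with dsRNase in all, against 25 and 27 with ssRNase, and 23 of the 27 had no dsRNase call. Of them, 19 were isolated single sites of 46 to 53 nt, each called in both ssRNase sets and in no dsRNase set, at a median spacing of 11579.5 nt. At 0 min all 19 were overlapped by a site called in both ssRNase sets, and 0 by a site with a dsRNase call, and at 60 min the counts were again 19 and 0. Near-identical copies share reads in alignment, so these sites may not be independent of each other. No annotation of the build was used here, and what the block encodes is not stated.

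**Figure D4:**
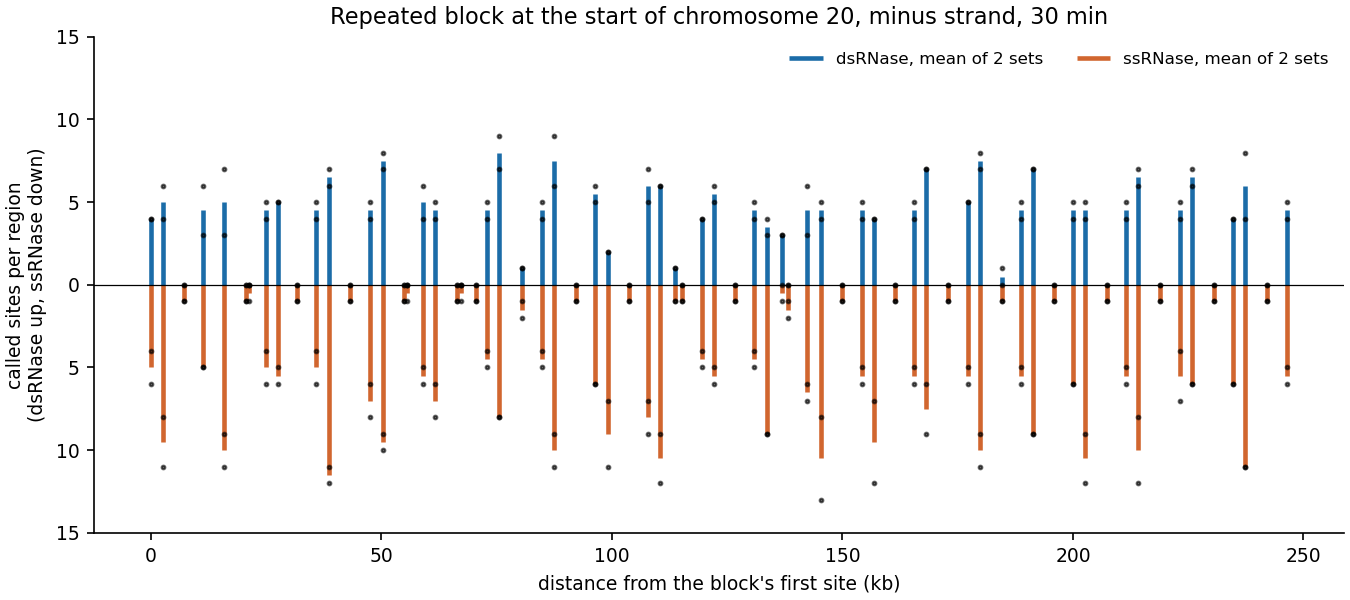
Called sites per region along the chromosome 20 block, by distance in kb from its first site, with the dsRNase mean of 2 sets drawn upward in blue, the ssRNase mean downward in orange and the single sets as black points. Middle regions reach similar heights for both RNases, long regions reach further down than up in most repeats, and 19 short single sites have ssRNase calls in both sets and no dsRNase call.

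Region by region, the balance of the RNases was tested with limma on the log2 number of called sites, scaled per set and strand, with a prior of 0.5 called sites. The 2772 regions with a scaled mean of at least 2 called sites at 30 min were tested, and they hold 25270 of the 47781 sites. Since sets are scaled to equal totals, a positive value means a larger share of the dsRNase sets, not more calls. The median log2 difference over the tested regions was -0.30 with this scaling and 1.09 without scaling. Of the tested regions, 43 (1.55%) had a higher share with dsRNase and 238 (8.59%) with ssRNase at a limma adjusted p under 0.05. Both dsRNase sets lay above both ssRNase sets in 460 regions (16.6%) and below them in 1253 (45.2%), on the scaled values. With interchangeable labels, 2 sets separate from 2 with probability 0.333, split evenly between the directions. The 16.6% is thus near the share without any difference. There is also a ceiling, since a set cannot have more called sites in a region than the region holds. After scaling, a region that both RNases nearly fill takes a larger share of the smaller ssRNase sets. A plus-strand region of 10 sites on chromosome 1, with 9 and 8 dsRNase and 7 and 8 ssRNase sites, thus passed toward ssRNase. The part of this ceiling in the 238 and the 1253 was not tested, so they are not counts of regions with more ssRNase sites.

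These counts rested heavily on the fit. Without scaling the balance turned round, with 762 regions higher with dsRNase and 37 with ssRNase. It also turned round with scaling but no minimum, with 2590 and 622 of 15572 regions. With same-numbered sets as a replicate block, 23 regions were higher with dsRNase and 8 with ssRNase, all among the 43 and the 238. The 4 sets of 30 min fitted alone gave 0 in either direction by limma, with 723 regions at an unadjusted p under 0.05. Without dsRNase replicate 1 the counts were 1 and 9, without dsRNase replicate 2 they were 8 and 209, without ssRNase replicate 1 they were 167 and 36, and without ssRNase replicate 2 they were 365 and 377. Of the 43 regions, 31 had no ssRNase call at 30 min, and of the 238, 17 had no dsRNase call and 40 lay in the chromosome 20 block, where 43 regions were tested. A region without a call of one RNase could reach the minimum only through the other RNase, so the 31 and the 17 are given as values and their tests are not used. In the block's 22 middle regions the unscaled totals of the RNases overlapped, at 91 and 111 dsRNase and 109 and 134 ssRNase sites. A call in such a region is of a larger share of the smaller ssRNase sets, not of clearly more sites. The 40 were not split by kind of region. Without the block 35 and 158 regions passed.

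**Figure D5:**
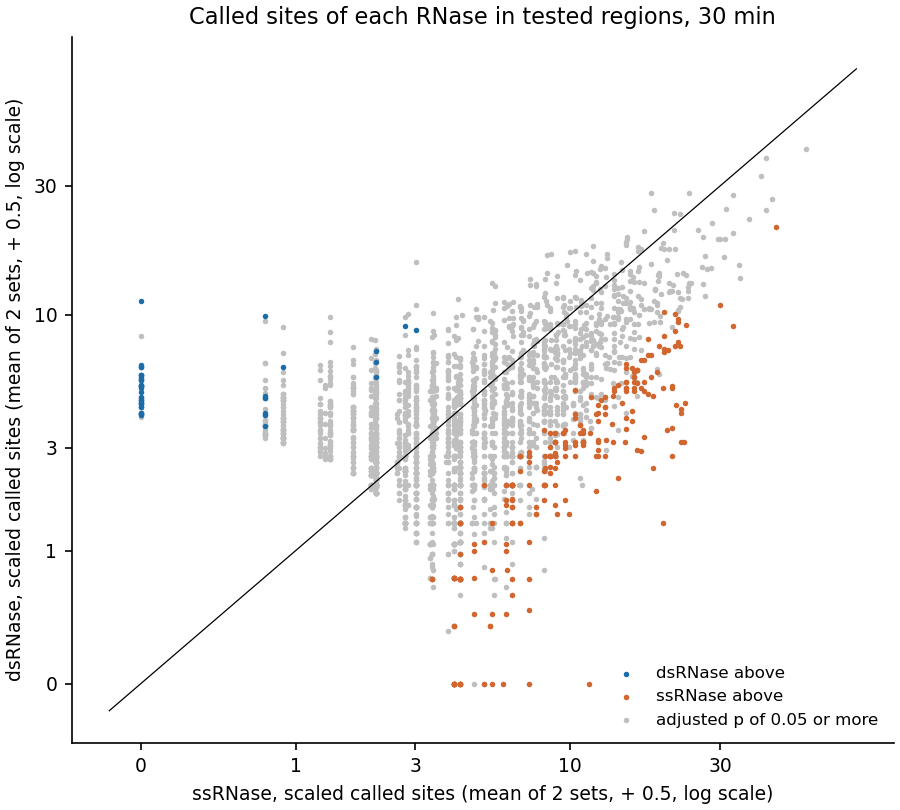
Scaled called sites in each of 2772 tested regions at 30 min, the dsRNase mean on the vertical axis against the ssRNase mean on the horizontal axis, each with 0.5 added and on a log scale; the line marks equal values. The 43 regions higher with dsRNase (blue) lie mostly at or near 0 ssRNase sites, and the 238 higher with ssRNase (orange) lie below the line, among them 17 with no dsRNase call.

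Regions past the test are listed in the order of the fitted difference. Where a region had no call of one RNase, it entered the test through the other alone. The fitted size then rests on the prior, so neither rank nor passing is used as support. The region with the largest dsRNase excess lay on chromosome 14 (9005987 to 9008763, plus strand, 20 sites). It was called at 20 and 14 sites in the dsRNase sets, against 0 and 0 in the ssRNase sets. At 0 min it had 17 and 18 against 1 and 2, and at 60 min 16 and 13 against 0 and 0. Its share was at least 3.59-fold higher with dsRNase, counted against a floor of 3 called sites over both ssRNase sets. Its fitted log2 difference was 4.46, and 5.43 with a prior of 0.25 and 3.53 with a prior of 1, so the fitted size depends on the prior.

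The other 9 regions of the largest dsRNase excess also had 0 ssRNase sites in both sets at 30 min, and all 10 entered the test through their dsRNase sites alone. On chromosome 3 (7557438 to 7559816, plus strand) the dsRNase sets had 11 and 8 sites. They had 4 and 5 in the 0-min list and 11 and 8 in the 60-min list, and the ssRNase sets had 0 in all 3 lists. On chromosome 11 (13509770 to 13512260, plus strand) there were 14 and 6 dsRNase sites, and the ssRNase sets were again at 0 at every time. The same held on chromosome 18 (5082300 to 5084274, minus strand) with 12 and 5, on chromosome 20 outside the block (3930176 to 3931450, minus strand) with 10 and 6, and on chromosome 21 (8761887 to 8763188, plus strand) with 11 and 7. Their shares were at least 1.90-fold to 2.11-fold higher with dsRNase, so the floor permits only modest bounds. On chromosome 1 (16124709 to 16127025, minus strand) there were 7 and 8 dsRNase sites, and the ssRNase sets had 1 and 1 sites at 0 min.

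The remaining regions of that list lay on chromosome 10 (13674153 to 13675392, plus strand) with 13 and 7 dsRNase sites, on chromosome 15 (14232195 to 14233667, minus strand) with 11 and 6, and again on chromosome 11 (12409121 to 12411685, plus strand) with 11 and 7. At 0 min their ssRNase sets had, in turn, 1 and 0, 1 and 0, and 2 and 0 sites. The chromosome 11 region had 2 and 0 dsRNase sites at 60 min. The chromosome 10 region had 1 other region of matching site pattern, which may share its reads.

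The largest ssRNase excess was found on chromosome 19 (2429983 to 2430673, minus strand, 9 sites). It had 0 and 0 dsRNase sites, against 7 and 3 ssRNase sites. At 0 min it had 1 and 2 against 8 and 3, and at 60 min no call in any set. Its share was at least 9.04-fold higher with ssRNase, against the floor of 3 called sites over both dsRNase sets. Its fitted log2 difference was -4.33, and -5.29 with a prior of 0.25 and -3.42 with a prior of 1. The 9 of the 10 named ssRNase-high regions without a dsRNase site entered the test through their ssRNase sites alone.

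A stretch of chromosome 15 was called by ssRNase on both strands. On the minus strand (2421818 to 2422852) the dsRNase sets had 0 and 0 sites, against 2 and 4 in the ssRNase sets, and 0 and 0 against 4 and 3 at 0 min. On the plus strand (2427860 to 2428471) they had 0 and 0 against 2 and 3, and 0 and 0 against 2 and 1 at 0 min. Neither region had a call in any set at 60 min. Their shares were at least 5.43-fold and 5.27-fold higher with ssRNase, against the same floor.

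The other ssRNase-high regions among the 10 largest were of 2 to 4 sites or lay in the block. A region of scaffold_270 (2363 to 2489, plus strand) had 0 and 0 dsRNase and 3 and 4 ssRNase sites, at least 7.38-fold. One long region of the chromosome 20 block (101517 to 103899, minus strand) had 2 and 2 dsRNase sites, against 11 and 7 ssRNase sites, a 12.2-fold higher share with ssRNase. Its log2 difference was -3.25 ± 0.62 (SE, limma adjusted p = 0.0211), and the call was lost with the replicate block (adjusted p = 0.0893), without ssRNase replicate 1 (log2 -2.50, adjusted p = 0.093) and without dsRNase replicate 1 (adjusted p = 0.177). Regions of 2 sites each on chromosomes 2 (20660995), 18 (8331183), 20 (1478813), 24 (4594704) and 21 (8044850), all on the minus strand, had 0 and 0 dsRNase and 2 and 2 ssRNase sites, at least 3.62-fold.

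The most covered regions were called by both RNases, in larger numbers by dsRNase. None of the 10 regions with the most covered sequence passed the test, with log2 differences of -0.89 to 0.62 and limma adjusted p of 0.102 to 0.893. The first, on chromosome 21 (2831254 to 2839989, plus strand, 7084 nt covered), had 58 and 60 dsRNase sites, against 20 and 34 ssRNase sites. Its log2 difference was -0.47 ± 0.30 with scaling and 1.16 without. On chromosome 10 a plus-strand region (9450502 to 9456671) had 19 and 19 dsRNase sites, against 10 and 13 ssRNase sites, and a minus-strand region nearby (9467095 to 9473173) had 18 and 19 against 9 and 13. On chromosome 8 (11648699 to 11657977, minus strand) the replicates disagreed, with 24 and 42 dsRNase sites and 3 and 26 ssRNase sites.

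On chromosome 12 lay 2 of these regions, which shared more than 30% of their pairs of site width and distance to the next site, so reads may be shared between them. The first (14137390 to 14145095, plus strand) had 48 and 36 dsRNase and 6 and 12 ssRNase sites, and the second (14230868 to 14238082, plus strand) 42 and 31 dsRNase and 7 and 11 ssRNase sites. At 0 min the first had 47 and 55 dsRNase and 12 and 5 ssRNase sites, and the second 45 and 49 against 10 and 4. At 60 min the first had 41 and 32 against 1 and 0, and the second 45 and 37 against 1 and 1. The difference between 30 and 60 min did not pass in the first (limma adjusted p = 0.461). In the second it passed (0.0376) and was lost with the replicate block (0.26).

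Whether this balance differed between times was tested in the same fit. Against 0 min 13 of 1961 regions passed (0.663%) and against 60 min 20 of 2054 (0.974%), at a limma adjusted p under 0.05, and all of them had a larger ssRNase share at 30 min. With the replicate block 0 passed in either comparison, with 97 and 113 regions at an unadjusted p under 0.05. A prior of 1 called site also gave 0 in both.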

How the data were processed

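The 12 call sets were read from 3 deposited lists, 1 per time; the 4 sets of 30 min are the main material. Reads were handled with cutadapt 1.2.1 and TopHat2 2.0.10, per the submitters' processing notes, which name the build mm10, a mouse build that cannot be that of the moss coordinates; for the true build and the caller's settings, no statement was found in the sources used here. The name of each list contains CSAR and a false discovery rate of 5%. Each site carries a score that the authors deposited without naming its unit, and it served here to rank the sites of a list and to describe the widest ones. Which library label holds proteins was not settled, since labels and protocol differ, and no result uses it. Coordinates are 1-based.

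A call set was given by the time, RNase and replicate in the call names, and a site counted as called in a set if it holds at least 1 of its calls. Members, lists and settings were chosen with earlier results of these data known. Exact permutation tests, two-sided, compared set values (2 against 2, and RNase labels permuted within times, 216 arrangements), with Benjamini-Hochberg adjustment at 0.05. Same-numbered dsRNase and ssRNase sets come from 1 divided sample, per the labels' protocols, so they are pairs. Their deviations correlated at 0.034, -0.031 and 0.026 at 0, 30 and 60 min over 2772 regions. The pairing was used as a replicate block, which cannot go below an unadjusted p of 0.0312 for single values. The region test used lmFit and eBayes of limma 3.58.1 (trend = TRUE) in R 4.3.3 on 12 sets in 6 groups, and the script was tested on simulated data. Region folds against a group without a call use a floor of 3 called sites over both sets. Regions named are, among those past the threshold, the 10 largest differences in each direction whose sets do not overlap, the 10 most covered of all, and the 5 largest differences between times past the threshold, which all ran toward ssRNase; sites named are the 5 widest of each class. The chromosome 1 region that shows the ceiling on called sites was picked as an example from those past the threshold. Other work used Python 3.11.15, pandas 2.3.3 and scipy 1.17.1. No gene names or sequences are given, since no genome of the build was used here.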

Additional observations from a re-analysis of the deposited data

Results flagged for a closer look

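In some regions the balance of the RNases at 30 min differed from that at another time by the test of the difference itself (limma on scaled log2 called sites, all 12 sets). Against 0 min, 0 regions moved toward dsRNase and 13 toward ssRNase, and against 60 min 0 and 20. None of them passed with the replicate block. The 30-min ssRNase sets held more calls in all than those of the other times (a mean of 14140.5 calls, against 8955.5 at 0 min and 7660 at 60 min), and the part of this in the result was not tested beyond the scaling. All 10 regions named here had no ssRNase site in either set at the other time, so their fitted differences depend on the prior and are no measure of size.

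Against 0 min, the region on chromosome 15 (4898715 to 4903608, plus strand) had 19 and 19 dsRNase and 8 and 8 ssRNase sites at 30 min, and 11 and 16 against 0 and 0 at 0 min (log2 difference of differences -4.52 ± 0.61, SE, limma adjusted p = 0.0199, and 0.149 with the replicate block). On chromosome 22 (6002449 to 6006792, minus strand) it had 20 and 21 against 8 and 12 at 30 min, and 5 and 14 against 0 and 0 at 0 min (-3.77). The regions on chromosome 18 (14726018 to 14727539, minus strand, -4.29), chromosome 10 (6499794 to 6502658, plus strand, -4.11) and chromosome 14 (13325356 to 13327570, minus strand, -3.63) were of the same kind, and the last matched 1 other region in its site pattern, so reads may be shared.

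Against 60 min, the region on chromosome 16 (5747124 to 5748895, minus strand) had 4 and 7 dsRNase and 5 and 5 ssRNase sites at 30 min, and 11 and 6 against 0 and 0 at 60 min (-4.77 ± 0.84, limma adjusted p = 0.0376, and 0.229 with the replicate block). On chromosome 14 (16201860 to 16207071, minus strand) the sets had 19 and 16 against 3 and 6 at 30 min, and 19 and 21 against 0 and 0 at 60 min (-4.16). Chromosome 8 (1831515 to 1833057, minus strand, -4.05), chromosome 4 (4883669 to 4885426, plus strand, -3.91) and chromosome 26 (2130848 to 2131869, minus strand, -3.88) held the others.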

How the results depend on the processing

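The depth of the libraries is unknown, each RNase has 2 sets at 30 min, and the list holds only sites past the authors' threshold, so these values limit what a low ssRNase number can show. The cause of each change below was not tested, except that leaving sets out also lowers the number of arrangements. The alternatives without the chromosome 20 block were chosen after seeing the data.

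Calls per set and calls per called site kept their direction and side of the threshold in all alternatives run. Leaving out 1 set of 30 min gave differences of 15630 to 27150 calls and -0.200 to -0.168 calls per site. It gave 4.5 to 6.5 nt for single-call width, -9.47 to -1.11 points for clustering, -7.46 to 0.0203 points for recurrence, -0.52 to 5.67 points for the plus-strand share and -0.00681 to -0.00284 for position. It gave 70.9 to 82.2% of ssRNase sites with a dsRNase call, and 15.2 to 41.4% of dsRNase sites with an ssRNase call. It gave 13 to 18 chromosome shares past the threshold and a chromosome 20 difference of -3.48 to -1.56 points. The replicate block moved the adjusted p of recurrence to 0.075 at an unchanged -3.72 points, left 0 chromosome shares past the threshold (chromosome 20 at -2.52 points) and changed no other call among the set values. Its exact test gave an adjusted p of 0.0469 for calls per set, single-call width, clustering and position, and 0.594 for the plus-strand share. For calls per called site it gave 0.03125, the smallest it can give. Gaps under 200 nt gave -0.0021 for position, and gaps under 1000 nt -2.98 points for clustering. Without the block chromosome 20 differed by -0.11 points, and 81.1% of ssRNase sites had a dsRNase call. Among sites scoring above their list's median the shares were 93.4% of ssRNase and 52.2% of dsRNase sites. Where each RNase, the other included, counted only with calls in both its replicates, they were 72.5% of ssRNase and 22.0% of dsRNase sites.

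In the region test, regions higher with dsRNase and with ssRNase numbered 23 and 8 with the replicate block, 0 and 0 with the 30-min sets alone, 762 and 37 without scaling, and 69 and 517 with a fixed prior. They numbered 383 and 724 at a minimum of 1, 9 and 225 at a minimum of 4, and 2590 and 622 without a minimum. They numbered 19 and 283 with gaps under 200 nt, 79 and 238 with gaps under 1000 nt, 91 and 327 with calls counted by name, 47 and 361 among sites scoring above their list's median, 35 and 158 without the block, and 1 to 365 and 9 to 377 with 1 set left out. Differences from 0 and from 60 min numbered 0 and 0 with the replicate block, 64 and 72 at a minimum of 1, 4 and 0 at a minimum of 4, and 0 to 55 and 0 to 43 with 1 set left out. Of the 20 named regions that passed, 20 failed with the 30-min sets alone and 8 with the replicate block. All but the chromosome 20 block region had no call of one RNase at 30 min and entered through the other alone. Their direction was set by this, so neither it nor their passing is used as support. Without scaling, regions that had not passed turned to dsRNase and passed at chromosome 21 2831254 (1.16), chromosome 14 5634046 (1.27), chromosome 10 5028443 (0.82) and chromosome 15 4898715 (1.198).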
